A study of Mus musculus with 10 samples.

Results

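The Myc and Max network is represented here by 8 genes, Myc, Mycl, Mycn, Max, Mxd4, Mxi1, Mga and Mlx. They were matched by symbol through their mouse gene identifiers on GRCm38, and all 8 were found among the 48709 genes of the tables, 21695 of them protein-coding. Supporting cells, the nonsensory cells that surround the hair cells of the balance organ, were sorted for a green reporter of Lfng from cultured utricles of Lfng-EGFP mice at postnatal day 21, and their RNA was sequenced in 10 libraries. Every culture received 0.1% DMSO. TRULI, an inhibitor of the Hippo kinases Lats1 and Lats2, was present at 10 μM in the treated cultures. By the sample labels 3 libraries had 5 days of DMSO alone and 3 had 5 days of TRULI, whereas 2 DMSO and 2 TRULI libraries had a further 5 days of recovery with neither. The comparisons ask how blocking Lats changes these genes and what remains of that change when the compound is withdrawn.

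The labels and the names of the deposited tables disagreed for 4 of the 10 libraries. A first pair, called pair A, was labelled TRULI at 5 days, replicates 1 and 2, and deposited as DMSO after recovery. A second pair, called pair B, was labelled DMSO after recovery and deposited as TRULI at 5 days, replicates 2 and 3. The other 6 libraries had the same condition in both: 3 with DMSO at 5 days, 1 with TRULI at 5 days and 2 after TRULI withdrawal. Ccn2, a secreted matricellular protein and a usual target of Yap, the protein that Lats restrains, stood at 8.88 to 15.6 CPM (read counts scaled to the library's total) with DMSO at 5 days and at 711 CPM in the TRULI library of agreed condition. It stood at 2.03 and 6.47 CPM in pair A, in spite of its TRULI label, and at 488 and 481 CPM in pair B, in spite of its DMSO label. Each comparison is therefore given by the sample labels and again by the deposited names, and the comparison of TRULI withdrawal with DMSO at 5 days is the same in both.

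The tables summed to between 2463872 and 6255149 counts. The mitochondrial ribosomal RNA mt-Rnr2 took 1.45% to 2.53% of the counts in pair A and the 2 libraries after TRULI withdrawal, and 13.02% to 26.4% in the other 6. The same 4 libraries had less Lfng, the gene behind the sort (21.2 to 100.1 CPM against 290 to 563), and held Myod1, a muscle regulator, at 14.4 to 89.1 CPM against at most 0.40 elsewhere, whereas the muscle markers Myog and Myf5 were at 0 in every library. By deposited name these 4 are all the libraries taken after recovery, so recovery and mt-Rnr2 share cannot be told apart there. All 12 supporting-cell markers had counts in every library. Their summed level was 15063 to 18762 CPM with DMSO at 5 days and 9011 to 12532 CPM in every other library. Of these 12, 5 were called lower after TRULI withdrawal against DMSO at 5 days, where 8.69% of all genes were (called means an edgeR adjusted p below 0.05 and a change beyond 1 on the log2 scale). By name 4 were lower in TRULI withdrawn against present (5.91% of all genes), 3 between the DMSO groups (8.17%) and 1 with TRULI at 5 days (0.992%). By label 2 were lower with TRULI after recovery (1.06%), and 1 was higher between the DMSO groups (2.04%). Counts in every library were also found for 7 of 9 hair-cell markers, whose summed level ran from 149 to 246 CPM with DMSO at 5 days, 27.2 to 40.6 in pair A, 171 to 523 in pair B and 134 to 847 after TRULI withdrawal, with 762 in the remaining TRULI library. Of 8 hair-cell markers tested between the DMSO groups by name, 6 were called lower, against 8.17% of all genes. The median difference of the 8 was -2.96 on the log2 scale, and 0 markers were called in the other comparisons. With TRULI by name, 8 of 8 tested differed upward at 5 days (median 1.40, against 0.02 for all genes). After recovery by name 6 of 6 did (median 3.78, against 0.01), in a comparison that called 0% of all genes. By label 7 of 8 did at 5 days (median 0.53) and 5 of 8 after recovery (median 0.69). After recovery by name only 6 of the 9 hair-cell markers passed the filter on low counts. A marker low in pair A could pass it there only through the TRULI libraries, which favours an upward direction. Those 2 TRULI libraries were also far apart, with sums of 847 and 134 CPM. Between the DMSO groups by name, where pair A is again the low group, the filter likewise favours a downward direction. The 7 mesenchymal markers summed to 19.2 to 38.4 CPM with DMSO at 5 days, 37.0 to 49.3 in pair A, 41.2 to 117 in pair B and 36.0 to 126 after TRULI withdrawal, with 42.5 in the remaining TRULI library, and the 5 glial markers to 54.4 to 83.8, 67.5 to 88.9, 72.3 to 75.5, 77.7 to 144 and 68.0 CPM in the same order. A few of them were called higher, and are named here after their values were seen. After TRULI withdrawal against DMSO at 5 days these were Col1a2, a collagen and 1 of 2 mesenchymal markers tested (2.50 ± 0.59, edgeR adjusted p = 0.0221), and Mbp, a myelin protein and 1 of 3 glial markers tested (1.54 ± 0.38, adjusted p = 0.0268), where 11% of all genes were called higher. Postn, a matrix protein of mesenchyme, was called at 5 days by name (5.32 ± 1.04, adjusted p = 0.0221), as 1 of 3 mesenchymal markers tested (2.09% of all genes), and between the DMSO groups by label (5.68 ± 0.97, adjusted p = 0.0112), as 1 of 4 (2.04%). Mbp was also higher by name in TRULI withdrawn against present (1.45 ± 0.36, adjusted p = 0.0360), as 1 of 3 (8.16%). The part of supporting-cell, hair-cell, mesenchymal and glial RNA, of mt-Rnr2 share and of Myod1 in the results was not tested. In such bulk libraries fewer cells of a type and less RNA per cell cannot be told apart.

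Myc proteins are transcription factors that bind DNA only as dimers with Max, at sequences called E-boxes, and raise genes of ribosome assembly, metabolism and the cell cycle. Max also pairs with the Mxd proteins, with Mxi1 (a member of the Mxd family), with Mnt and with Mga, and these pairs compete for the same sites and bring repressors. Mlx is a Max-like partner for the glucose-responsive factors Mlxip and Mlxipl and for some of the Mxd proteins. In several tissues Myc is among the genes that Yap and its partner Tead turn on, and its RNA and protein are short-lived.

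Promoter sequences from RefSeq (GRCm38.p6), 250 bases before the start of the transcript, were found for 7 of the 8 genes, all but Myc, in 9 windows. CACGTG, the E-box that Myc and Max bind, was searched on both strands and lay in the windows of 2 members, Mxd4 and Mlx, against 6.02% of 32851 promoter windows of all genes. Both belong to the side of the network that does not carry Myc, and the windows are shown with the E-box in capitals, on the strand of the gene, at chr5:34187907-34187946 (minus) and chr11:101087233-101087272 (plus).
Mxd4: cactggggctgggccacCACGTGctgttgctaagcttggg
Mlx: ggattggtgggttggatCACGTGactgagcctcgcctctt
The E-box began 219 bases before the start of Mxd4 and 40 bases before that of Mlx. GGAATG, the site of Tead factors (CATTCC on the other strand), was in 0 of the 7 members searched and in 12.6% of all windows. Myc was not searched.
The Mycn promoter holds 2 copies of TTTGGCGC, a site of E2f cell-cycle factors (GCGCCAAA on the other strand). The motif was chosen with the levels of Mycn known, and its part in them was not tested. This motif was in 0.417% of all windows and in no other member searched. The copies, in capitals, began 183 and 168 bases before the start, in chr12:12941837-12942086 on the minus strand.
Mycn: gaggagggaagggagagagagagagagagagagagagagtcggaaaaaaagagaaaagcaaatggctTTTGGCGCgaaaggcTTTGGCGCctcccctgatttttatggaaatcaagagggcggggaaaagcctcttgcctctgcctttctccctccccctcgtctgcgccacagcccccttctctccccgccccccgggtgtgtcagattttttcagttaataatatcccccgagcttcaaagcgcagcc
A match is a string of letters, and no binding was measured here.

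Compared per length, as FPKM (counts scaled to the library's protein-coding total and to the effective transcript length), Mxi1 was the highest member, with a median of 115 FPKM over the 10 libraries. Max (28.1 FPKM), Mlx (24.1), Mxd4 (16.3) and Mga (14.1) followed, then Myc (6.93), Mycn (2.44) and Mycl (1.35). Only Mxi1 stood clear of its neighbour in every library, at 78.0 FPKM or more against at most 57.8 for Mlx and 50.2 for Max. Neighbours further down the order overlapped. The effective length that the tables assign to Mxd4, Mlx, Mga and Mycn also changed from library to library, from 778 to 3706 bases for Mxd4, so their order is loose. What follows uses CPM, which compares a gene only with itself. Myc varied 41.5-fold and Mycn 39.3-fold between their lowest and highest libraries, and Mycl 12.7-fold. Max varied 2.75-fold, Mxi1 1.75-fold, and Mxd4, Mga and Mlx between 2.25-fold and 3.11-fold.

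**Figure D1:**
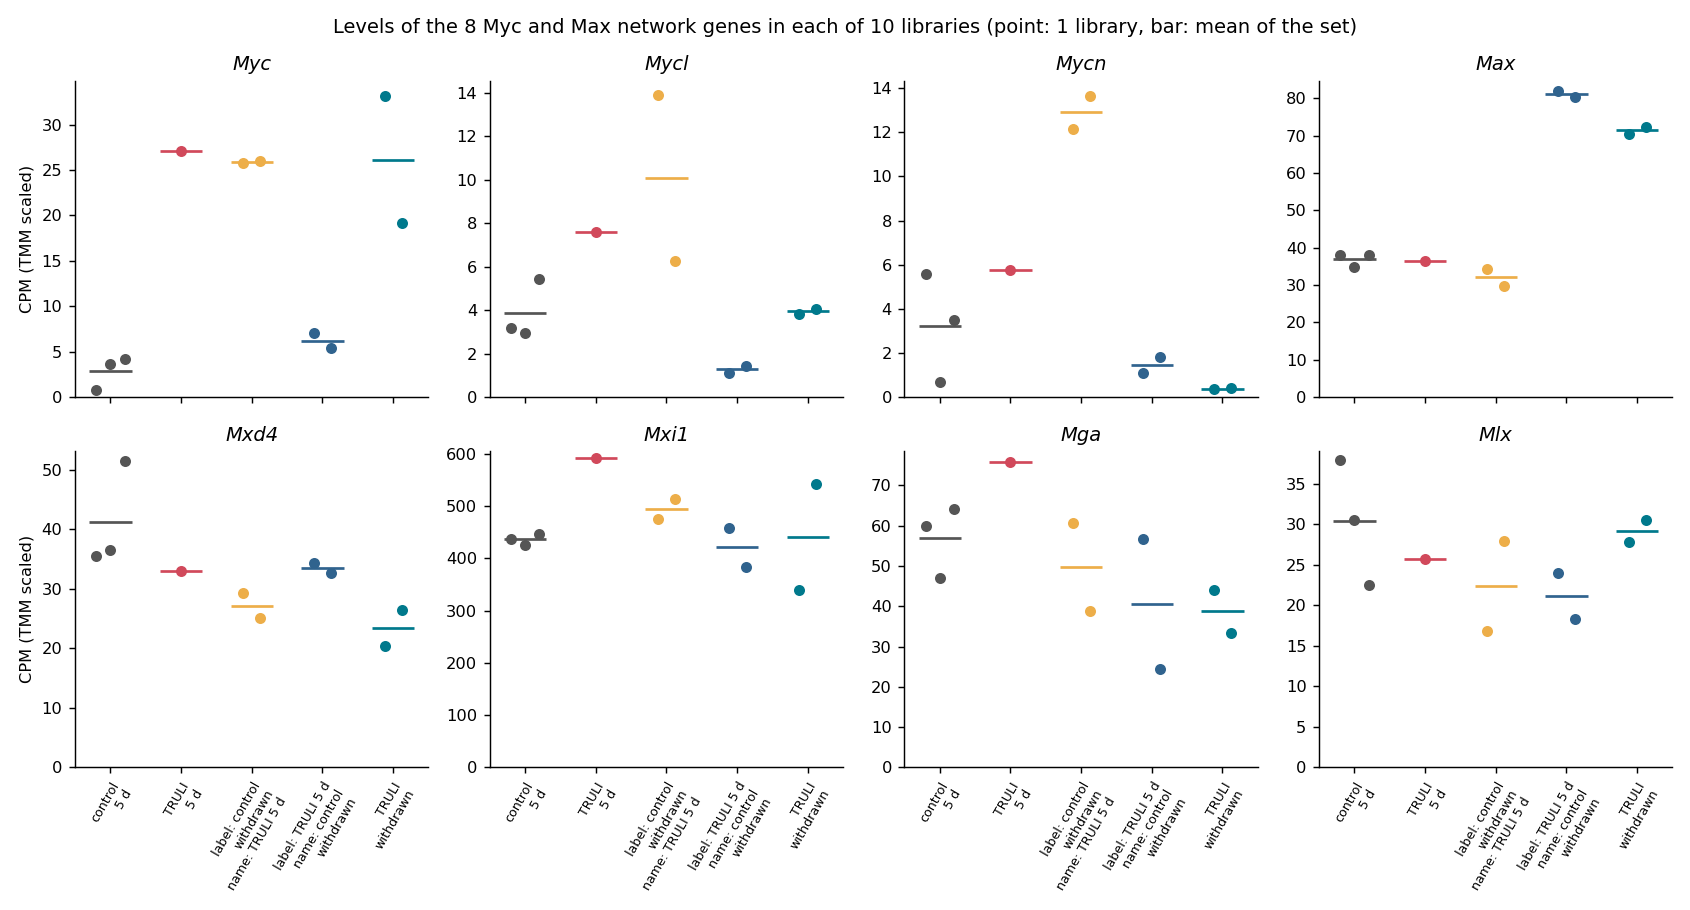
Levels of the 8 genes in CPM (TMM scaled, linear axes) in each library; the horizontal axis groups the libraries by condition, with the labels and names of pairs A and B written out, each point is 1 library and each bar the mean of its set. Myc is high in 5 libraries (19.1 to 33.2 CPM) and low in 5 (0.80 to 7.04), Mycn is highest in pair B, and Max is high in pair A and after TRULI withdrawal.

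Myc (chr15:61985391-61990374, plus strand) was low with DMSO at 5 days, with 0.80, 3.62 and 4.21 CPM, from 2, 11 and 17 counts. It stood at 33.2 and 19.1 CPM after TRULI withdrawal, from 191 and 94 counts. The library treated with TRULI for 5 days by label and by name had 27.0 CPM (103 counts). Pair A had 7.04 and 5.39 CPM, and pair B 25.84 and 25.98 CPM. Thus 5 libraries lay at 19.1 CPM or above and 5 at 7.04 or below, with none in between.

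After TRULI withdrawal, the comparison on which labels and names do not differ, Myc rose over DMSO at 5 days by 3.13 ± 0.65 on the log2 scale (SE, n = 2 and 3, edgeR adjusted p = 0.0153). In pooled counts this was 8.53-fold, with a 95% interval of 5.84 to 12.9 that covers counting error only. Myc was the only member called in this comparison. Of 11112 protein-coding genes 19.7% were called, 11% higher and 8.69% lower. The groups did not overlap for 5 of the 8 members and for 53.1% of genes. Without the second DMSO library the difference was 3.31 but the adjusted p 0.0660. With all 10 libraries in 1 fit, which takes in pairs A and B and their disputed conditions, the adjusted p was 0.0648. Under the alternatives other than leaving out a library the difference stayed at 3.12 to 3.59. Treatment, recovery, mt-Rnr2 share and the level of supporting-cell markers differ together here and cannot be told apart. The same comparison did not call Mycl, and Ccn2 was at 15.3 and 3.66 CPM after withdrawal, within or below its DMSO level.

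At 5 days by label, Myc averaged 13.2 ± 12.1 CPM with TRULI and 2.88 ± 1.82 with DMSO (SD, n = 3 and 3). The groups did not overlap, but the difference of 2.18 ± 0.84 on the log2 scale did not pass (edgeR adjusted p = 0.342). Of 10580 protein-coding genes 0.00945%, a single gene, were called, 13.7% had an unadjusted p under 0.05, and DESeq2 called 183 higher and 61 lower. None of the 8 members was called by either tool, 1 of them (Myc) had an unadjusted p under 0.05, and 2 had groups that did not overlap, against 18.4% of genes. Restricted to libraries with an mt-Rnr2 share above 10%, which removes pair A and leaves 1 TRULI library, the difference in Myc was 3.17, a value with no replicate behind it on the TRULI side. Without that library, which leaves pair A against DMSO, it was 1.07 (adjusted p = 0.331). By deposited name the TRULI libraries held 26.3 ± 0.66 CPM (SD, n = 3) and lay far above the 3 DMSO libraries. Myc rose by 3.14 ± 0.46 on the log2 scale (edgeR adjusted p = 0.00703), the only member called where 3.09% of 10984 genes were, 2.09% upward, and 5 of 8 members had groups that did not overlap, against 21.5% of genes. In the paired fit by replicate number the difference was 3.20 (adjusted p = 0.000970), while the genes called went from 230 higher and 109 lower to 460 and 212. Without the second DMSO library it was 3.28 with an adjusted p of 0.0515.

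After recovery, the labels set the 2 TRULI libraries (26.2 ± 9.95 CPM, SD) against pair B (25.9 ± 0.10), and Myc differed by 0.02 ± 0.49 on the log2 scale (edgeR adjusted p = 0.982). By deposited name the control was pair A (6.22 ± 1.17 CPM, n = 2). Each TRULI library was above each control library, with a difference of 2.08 ± 0.72 and an edgeR adjusted p of 0.959. In that comparison 0% of 10845 protein-coding genes were called by edgeR, 4.52% had an unadjusted p under 0.05, and DESeq2 called 39 higher and 7 lower genes but no member. Groups did not overlap for 5 of the 7 members tested and 28.7% of genes. Mycn was not tested there, and its groups did not overlap either (0.35 and 0.41 CPM against 1.10 and 1.80).

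Between TRULI withdrawn and TRULI present Myc differed by 1.001 ± 0.79 by label (edgeR adjusted p = 0.999), where 0% of 11444 genes were called and 3.03% had an unadjusted p under 0.05. This value was 2.08 without the third TRULI library at 5 days (adjusted p = 0.959), 0.55 without the first after withdrawal, 0.63 without the second at 5 days and 2.05 with the replicate block (adjusted p = 0.429). DESeq2 called 4 genes there, and neither tool a member. Groups did not overlap for 2 of the 7 members tested and 15.9% of genes. Mycn was not tested there, and its groups did not overlap either (0.35 and 0.41 CPM against 1.10, 1.80 and 5.78). By name the difference in Myc was 0.02 ± 0.39 (edgeR adjusted p = 0.977), with overlapping groups. The controls differed too. By label, pair B against DMSO at 5 days, Myc rose by 3.11 ± 0.52 (edgeR adjusted p = 0.0101), with 2.49% of 11348 genes called, and 6 of 8 members and 31.5% of genes without overlap. Without the second DMSO library this adjusted p was 0.0502, and with all 10 libraries in 1 fit it was 0.410. By name, pair A against DMSO at 5 days, it was 1.07 ± 0.75 higher (adjusted p = 0.331). The TRULI effect at 5 days exceeded that after recovery by 2.13 ± 1.07 on the log2 scale by label (edgeR adjusted p = 0.765) and by 1.08 ± 0.76 by name (adjusted p = 0.687), so no difference in effect was shown. In these tests of the difference 0% of 11918 genes were called by edgeR, 6.65% by label and 9.31% by name had an unadjusted p under 0.05, and DESeq2 called 29 higher and 12 lower genes by label, 39 and 40 by name, and no member.

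**Figure D2:**
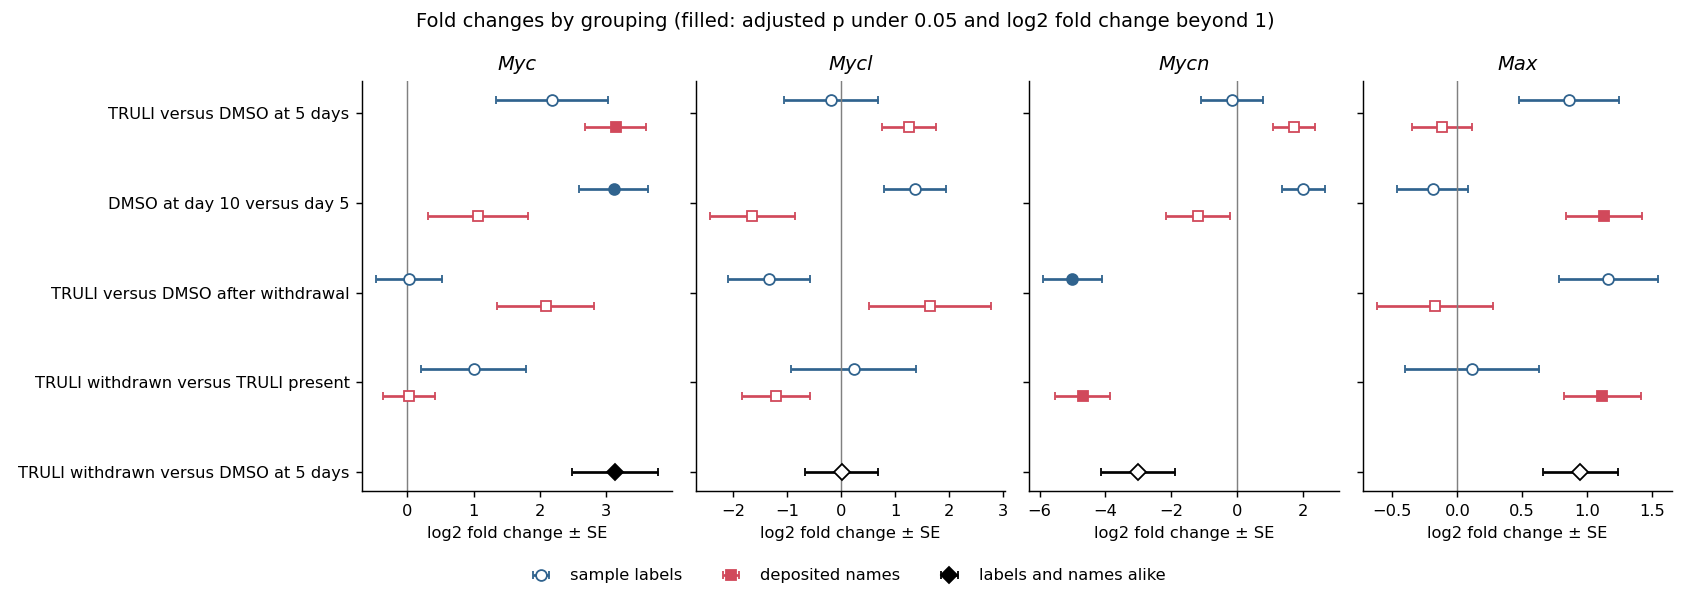
Log2 fold changes (horizontal axis, bars ± SE from edgeR) of Myc, Mycl, Mycn and Max in 5 comparisons (vertical axis), by sample label (circles), by deposited name (squares) and where both give the same libraries (diamonds); filled symbols were called. Myc is called at 5 days by name only (3.14 against 2.18 by label), between the DMSO groups by label (3.11) and after withdrawal against DMSO at 5 days (3.13), while Mycn is strongly lower wherever pair B is in the control or comparison group of TRULI withdrawal.

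Mycn (chr12:12936093-12941914, minus strand), best known from neural progenitors and development, was lowest after TRULI withdrawal, with 2 counts in each library (0.35 and 0.41 CPM). DMSO at 5 days gave 5.59, 0.66 and 3.47 CPM, from 14, 2 and 14 counts, pair A gave 1.10 and 1.80, and the agreed TRULI library 5.78. Pair B stood above all others, at 12.2 and 13.7 CPM (49 and 61 counts). TRULI withdrawal was thus below every other library, and pair B above every other.

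By label, where pair B is the control after recovery, Mycn fell by 5.00 ± 0.89 on the log2 scale with TRULI (edgeR adjusted p = 0.0445). It was the only member called, where 2.05% of 11469 genes were called, 1.06% downward. The groups did not overlap for 3 of the 8 members and for 58.1% of genes. Because 4 counts stand in the lower group, the fitted value depends on the prior count. In every comparison with TRULI withdrawal where it was tested, Mycn passed the filter on low counts only through the other group, which favours a fall. Against pair A it was not tested. The pooled ratio was 34.6, with a 95% counting interval of 13.1 to 129. The call was lost without either library of pair B, which leaves a single control library, and with all 10 libraries in 1 fit (adjusted p = 0.176). The difference stayed between -5.12 and -4.90 with each library left out, and between -5.08 and -4.98 under the other alternatives. By name pair B belongs to TRULI at 5 days, and Mycn fell by 4.69 ± 0.84 from TRULI present to TRULI withdrawn (edgeR adjusted p = 0.0167), in a comparison that called 14.1% of 11648 genes, 8.16% higher and 5.91% lower, and left 51.6% of genes and 3 of 8 members without overlap. Without the second TRULI library by name its adjusted p was 0.0787, and with each library left out the difference stayed between -5.00 and -4.45. Against DMSO at 5 days, with agreed conditions, the difference was -3.00 ± 1.13 (adjusted p = 0.0900), and the pooled counts were 8.36-fold lower (2.94 to 32.6). By name at 5 days TRULI was 1.74 ± 0.64 above DMSO (adjusted p = 0.201, but 0.0393 with no filter on low counts), without overlap, and by label -0.14 ± 0.95 (adjusted p = 0.953), with overlap. The effect at 5 days exceeded that after recovery by 4.83 ± 1.47 by label (edgeR adjusted p = 0.649) and 3.53 ± 1.31 by name (adjusted p = 0.440).

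Mycl (chr4:122995652-123002485, plus strand), the third Myc protein, was called in no comparison. DMSO at 5 days gave 3.20, 2.96 and 5.45 CPM and TRULI withdrawal 3.82 and 4.07 CPM, so these groups overlapped, with a difference of 0.01 ± 0.68 on the log2 scale (adjusted p = 0.993). Pair A was lowest, at 1.10 and 1.44 CPM, the agreed TRULI library had 7.62, and pair B 13.9 and 6.27. Pair B and the agreed TRULI library were above every other library for Mycl, as they were for Mycn, and Myc was at 25.8 CPM or more in these 3. The smallest margins over a DMSO library at 5 days were narrow. For Mycl it was 6.27 against 5.45 CPM (28 and 22 counts), and for Mycn 5.78 against 5.59 CPM (22 and 14 counts). By name, TRULI at 5 days was 1.25 ± 0.50 higher (edgeR adjusted p = 0.236).

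Max (chr12:76937269-76962201, minus strand), the shared partner, split the libraries in another way. DMSO at 5 days gave 38.0, 34.9 and 37.9 CPM, the agreed TRULI library 36.5 and pair B 34.3 and 29.8. Pair A gave 82.0 and 80.5 CPM, and TRULI withdrawal 70.6 and 72.2. The 4 libraries with a low mt-Rnr2 share thus held 70.6 to 82.0 CPM and the other 6 held 29.8 to 38.0. No other member separated these 2 sets, which 24.3% of 11918 protein-coding genes also did. Within each set TRULI differed from DMSO by name by -0.12 ± 0.23 on the log2 scale at 5 days (edgeR adjusted p = 0.865) and -0.17 ± 0.45 after recovery (adjusted p = 0.9998).

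Max was called higher in 2 comparisons. By name it was 1.12 ± 0.30 higher after TRULI withdrawal than with TRULI present (edgeR adjusted p = 0.0427), where 14.1% of genes were called, 8.16% higher. By name it was also 1.13 ± 0.29 higher in DMSO after recovery than at 5 days (edgeR adjusted p = 0.0303). There 18.7% of 10810 genes were called, 10.5% higher, and 4 of 8 members and 54.9% of genes did not overlap. In the first of these comparisons 4 of 12 supporting-cell markers were called lower, and in the second 3 of 12 and 6 of 8 hair-cell markers, and their part in the result was not tested. Same-numbered libraries had r of -0.14 to 0.09 in the first and 0.01 to 0.05 in the second. Under the alternatives other than leaving out a library, Max stayed higher by 1.06 to 1.13 and by 1.13 to 1.19. Neither call on Max held in the fit with the replicate number as a block (adjusted p = 0.165 and 0.114). The first was also lost without any one of the TRULI libraries at 5 days (0.125, 0.172 and 0.0950 for replicates 1 to 3 by name) or the second after withdrawal (0.0715). The second was lost without any one of the DMSO libraries at 5 days (0.0968, 0.135 and 0.0832 for replicates 1 to 3). TRULI withdrawal against DMSO at 5 days gave 0.95 ± 0.29 (edgeR adjusted p = 0.0483), under the fold minimum. By label Max was 0.86 ± 0.39 higher with TRULI at 5 days (adjusted p = 0.368) and 1.16 ± 0.38 higher after recovery (adjusted p = 0.125). At 5 days the label contrast was -0.01 between the single TRULI library with an mt-Rnr2 share above 10% and DMSO, and without TRULI replicate 3 it was 1.13 (adjusted p = 0.0303).

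**Figure D3:**
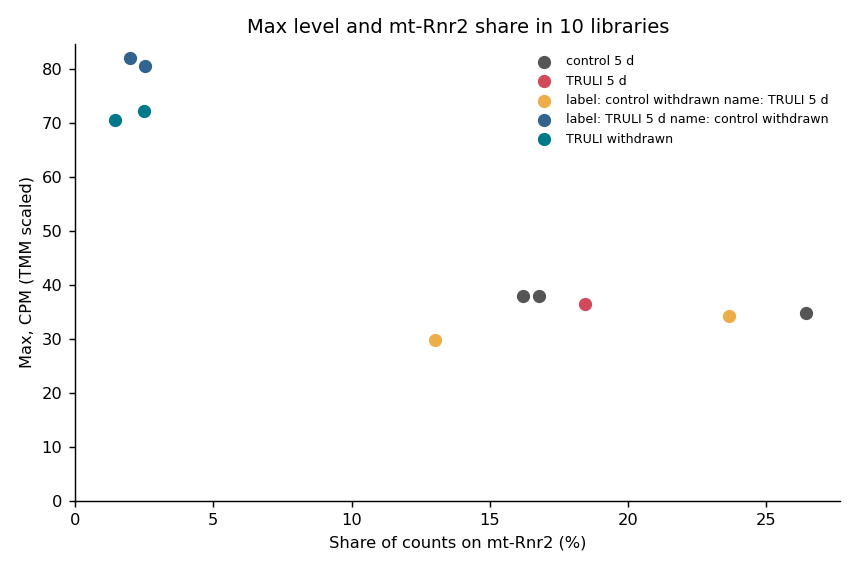
Max in CPM (vertical axis, TMM scaled) against the percentage of each library's counts on mt-Rnr2 (horizontal axis), 1 point for each of the 10 libraries, coloured by condition. The 4 libraries under 3% mt-Rnr2 lie at 70.6 to 82.0 CPM, and the other 6 at 29.8 to 38.0 whatever their treatment.

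The members that oppose Myc, or stand apart from it, were called in none of 11 comparisons. Mxd4 (chr5:34173883-34187720), a Max partner that represses, stood at 35.6, 36.5 and 51.6 CPM with DMSO at 5 days and at 20.3 and 26.4 after TRULI withdrawal. These groups did not overlap, yet the difference of -0.82 ± 0.36 on the log2 scale did not pass (edgeR adjusted p = 0.137). Pair A gave 34.4 and 32.7 CPM, the agreed TRULI library 33.1, and pair B 29.3 and 25.1. Every library outside DMSO at 5 days was thus below all 3 of that group, as it was for the summed supporting-cell markers, and the fitted differences of Mxd4 over the 11 comparisons ran from -0.82 to 0.02.

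Mxi1 (chr19:53310518-53375810), the most abundant member, stood at 437, 427 and 447 CPM with DMSO at 5 days and at 592 in the agreed TRULI library. Pair A gave 459 and 383 CPM, pair B 475 and 513, and TRULI withdrawal 339 and 543. Its fitted differences lay between -0.23 and 0.30, the narrowest range of these 4 genes. Mga (chr2:119897228-119969581), a large Max partner that also carries a T-box domain, ranged from 24.4 to 75.9 CPM, with both ends among the libraries labelled TRULI at 5 days, and its differences from -0.56 to 0.24. Mlx (chr11:101087277-101092207) ranged from 16.9 to 38.0 CPM and its differences from -0.82 to 0.47, the lowest being a difference of 2 effects. Txnip and Arrdc4, the usual targets of Mlx with its glucose-responsive partners, were likewise called in no comparison.

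The other genes of the network were Mxd1, Mxd3, Mnt, Mlxip and Mlxipl, and 0 of the 5 were called in any comparison. Mxd3, a Max partner found in dividing cells, had 11 and 13 counts in pair B and at most 1 count in each of the other libraries. Its fitted changes rest on such counts and are not given. Mnt, the widely expressed Max partner, had 47.4 CPM in the second library of pair A and 10.5 to 25.9 in the rest. Mxd1 ran from 4.03 to 25.8 CPM, Mlxip from 65.9 to 162 and Mlxipl from 0.16 to 11.8.

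Of 26 genes that Myc is known to raise, in nucleoli, metabolism and the cell cycle, 24 were tested at 5 days, and 0 were called in either grouping, against 0.00945% of all genes by label and 3.09% by name. Their median difference was -0.15 on the log2 scale by label, against 0.04 for all protein-coding genes tested, and 0.02 by name, against 0.02. After TRULI withdrawal against DMSO at 5 days, 3 of 24 were called higher and 0 lower, against 11% and 8.69% of all genes. The 3 were Fbl, a nucleolar methyltransferase (1.52 ± 0.33, edgeR adjusted p = 0.0185), Eif4e, the cap-binding factor of translation (1.07 ± 0.25, adjusted p = 0.0227), and Cdk4, a cell-cycle kinase (1.20 ± 0.33, adjusted p = 0.0363). The median of the 24 was -0.33, against 0.01 for all genes, and 9 of 24 were positive. By name between TRULI withdrawn and present, 3 of 26 were higher (Tfrc, the transferrin receptor, with Fbl and Eif4e) and 1 lower, Odc1, the first enzyme of polyamine synthesis, against 8.16% and 5.91% of all genes. Between the DMSO groups by name, where pair A counts as DMSO though it is labelled TRULI, 5 of 24 were higher and 1 lower. Of all genes 10.5% and 8.17% were. Those of lowest p were Eif4e (1.35 ± 0.28, edgeR adjusted p = 0.0157), Cdk4 (1.45 ± 0.31, adjusted p = 0.0174) and Ccnd2, a cyclin (1.505 ± 0.35, adjusted p = 0.0215), and the lower gene was Nop56, of the nucleolus (-1.41 ± 0.39, adjusted p = 0.0376).

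Among 10 partners of Myc on chromatin, 0 were called at 5 days in either grouping, where 0.00945% of all genes were called by label and 3.09% by name. After TRULI withdrawal against DMSO at 5 days, 3 of 10 were higher, against 11% of all genes. These were Wdr5, which anchors Myc on chromatin (1.38 ± 0.29, edgeR adjusted p = 0.0162), Cdk9, a kinase that releases paused polymerase (1.08 ± 0.25, adjusted p = 0.0217), and Trrap, a scaffold of acetyltransferases (1.22 ± 0.30, adjusted p = 0.0255). By name, 2 of 10 were higher and 0 lower in TRULI withdrawn against present, where 8.16% and 5.91% of all genes were called, namely Cdk9 (1.24 ± 0.28, adjusted p = 0.0277) and Wdr5 (1.25 ± 0.30, adjusted p = 0.0325). Between the DMSO groups by name 2 of 10 were higher and 0 lower, against 10.5% and 8.17%, namely Cdk9 (1.64 ± 0.31, adjusted p = 0.0133) and Ruvbl2, a helicase of chromatin complexes (1.54 ± 0.45, adjusted p = 0.0422). Of 10 regulators of Myc protein turnover, 1 was called higher and 1 lower after withdrawal than in DMSO at 5 days, against 11% and 8.69% of all genes. The higher one was Usp36, a deubiquitinase (1.37 ± 0.35, adjusted p = 0.0294), and the lower one Huwe1, a ubiquitin ligase (-1.22 ± 0.30, adjusted p = 0.0254). By name, 2 of the 10 were higher and 0 lower in TRULI withdrawn against present, where 8.16% and 5.91% of all genes were called. These were Fbxw7, the ligase that marks phosphorylated Myc for decay (1.26 ± 0.30, adjusted p = 0.0328), and Usp36 (1.22 ± 0.30, adjusted p = 0.0344). In DMSO after recovery against 5 days by name, 1 of 9 was higher, again Fbxw7 (1.25 ± 0.30, adjusted p = 0.0235), and 1 lower, Stub1, a ubiquitin ligase (-1.10 ± 0.32, adjusted p = 0.0445), where 10.5% and 8.17% of all genes were called. Of 6 corepressors of Max and Mxd pairs, 1 was called lower and 0 higher after TRULI withdrawal against DMSO at 5 days, where 8.69% and 11% of all genes were called. It was Hdac1, a histone deacetylase, at -1.84 ± 0.51 (adjusted p = 0.0364). The comparisons that gave calls in these lists set low against high mt-Rnr2 libraries.

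Myc was set beside a Yap target and a cycling marker library by library. Mki67, a protein of dividing cells, had 26.8 CPM in the agreed TRULI library, 126 and 56.2 in pair B, and at most 1.64 CPM in every other library. Ccn2 was high in the same 3 libraries. Myc was high in these 3 and also after TRULI withdrawal, where Mki67 had 0 counts in both libraries. By name at 5 days, 6 of 6 cycling genes and 3 of 4 Yap targets tested were called higher, against 2.09% of all genes, among them Ccn2 (5.57 ± 0.31, edgeR adjusted p = 2.76e-05) and Mki67 (6.36 ± 0.76, adjusted p = 0.00263), along with Myc. By label after recovery, 4 of 6 cycling genes and 2 of 4 Yap targets were called lower, with Mycn, against 1.06% of all genes. Mki67 passed the filter on low counts only through the libraries where it was high. At 5 days by name these had 102, 509 and 251 counts, and DMSO had 0, 5 and 3. At 5 days by label 1 of the 6 cycling genes was tested. Ccn2 had also been read earlier to set the names beside the labels. These calls therefore describe the libraries and are no independent test of either grouping.

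**Figure D4:**
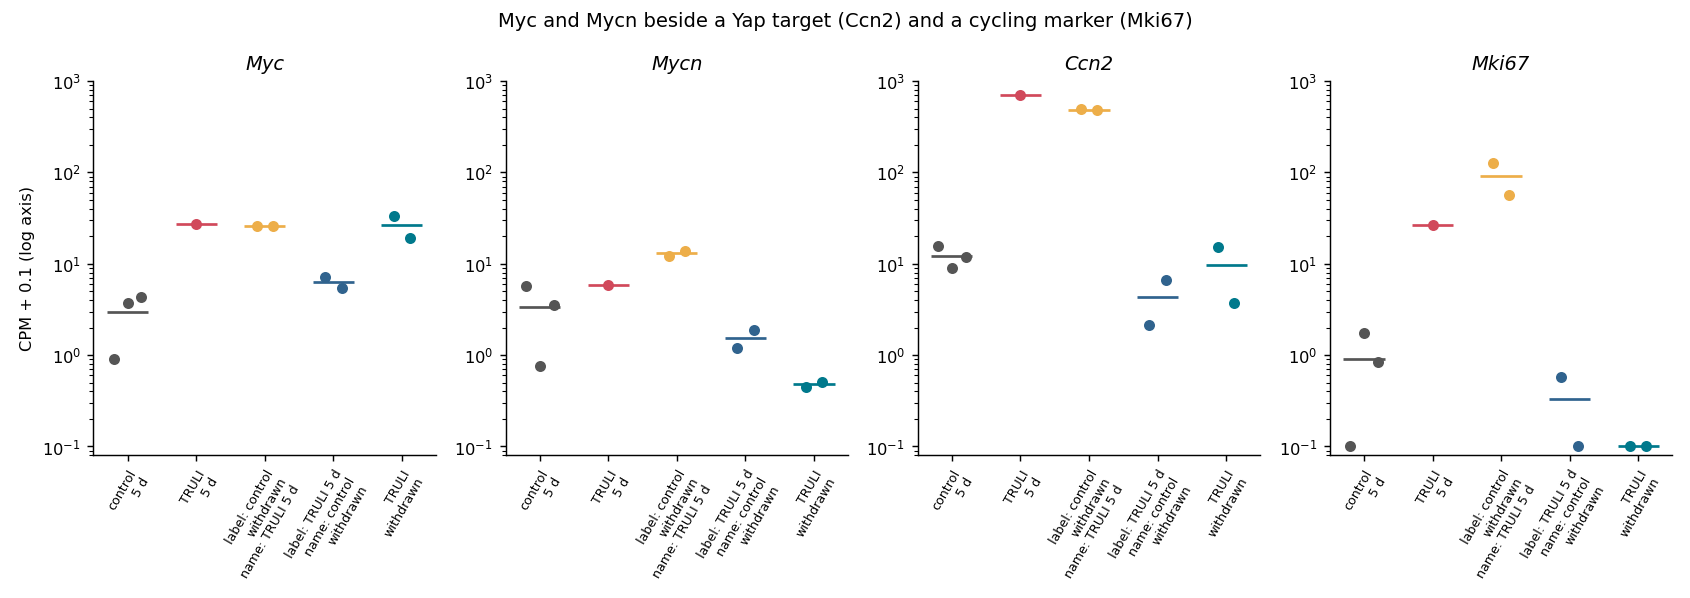
Myc, Mycn, the Yap target Ccn2 and the cycling marker Mki67 in each library, as CPM plus 0.1 on a log axis; points are libraries and bars the means of their sets. Ccn2 and Mki67 are high in the agreed TRULI library and pair B alone, Mycn is highest in pair B, and Myc is also high after TRULI withdrawal (33.2 and 19.1 CPM).

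Over the 10 libraries, on log2 CPM, Pearson's r with Myc was 0.53 for Ccn2, 0.53 for Mki67, 0.50 for Mycl, 0.08 for Mycn, 0.05 for Max and -0.68 for Mxd4. Of 11917 protein-coding genes the highest were Ctps, an enzyme of CTP synthesis (0.95), Begain (0.94), Hspg2, the basement-membrane protein perlecan (0.94), Eda2r, a receptor of the tumor-necrosis-factor family (0.93), and Siva1 (0.93). These values describe 10 libraries that share conditions and sorts. Ctps ran from 6.79 to 60.03 CPM and was lowest with DMSO at 5 days. Eda2r had at most 0.66 CPM in pair A and DMSO at 5 days and 2.44 to 15.8 CPM in the 5 libraries with high Myc. Begain, Hspg2 and Siva1 had at most 0.99, 0.94 and 1.41 CPM in pair A and DMSO at 5 days. That is near a floor of 3 counts (at most 1.22 CPM), so their r, like that of Eda2r, rests on few counts there.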

How the data were processed

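RNA was measured in 10 libraries of sorted murine utricular supporting cells. Per the methods, STAR aligned the reads to GRCm38. The authors deposited 1 table per library of expected counts per gene, not normalized, with effective lengths in bases. The counting program is not given in the sources used here, and the labels and the methods name different library kits. Identifiers were matched to GENCODE M21 (48349 of 48709).

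Expected counts were rounded, filtered with filterByExpr (minimum count 10), scaled with TMM and tested by quasi-likelihood in edgeR 4.0.16 under R 4.3.3, with the 2 groups of each comparison in 1 fit and Benjamini-Hochberg adjustment over all genes tested. Genes were called at an adjusted p below 0.05 with a change beyond 1 on the log2 scale. SE is the log2 fold change over the root of F. CPM used TMM factors over all 10 libraries, and FPKM divided counts by the protein-coding total and the effective length, without TMM. The sources used here tie no strain to the Lfng-EGFP mice. The methods call the replicates biological without describing animals or cultures, so p-values measure the spread between these libraries. A floor of 3 counts equals at most 1.22 CPM.

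Groups follow the sample labels, with the deposited names beside them. Members and lists were chosen with earlier results of these data known. Named genes were all members and other network genes, Txnip and Arrdc4, at most 3 called genes by lowest p of each list and direction, and the 5 genes of highest r with Myc. Marker lists were also read for macrophages, endothelium, melanocytes, glia and mesenchyme. At 0 in all libraries were 3 of 7 macrophage markers, 1 of 4 endothelial and 2 of 4 melanocyte markers. Counts in every library were found for 3 of 5 glial and 2 of 7 mesenchymal markers. The macrophage markers summed to 0.99 to 1.60 CPM with DMSO at 5 days and 5.63 to 6.82 in pair A. They summed to 4.47 to 7.39 in pair B, 7.09 in the remaining TRULI library and 0.87 to 18.1 after TRULI withdrawal. Their part in the results was not tested. Any 2 libraries differed beyond sampling noise, with a chi-square of at least 16.7 per degree of freedom.

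Same-numbered libraries by name at 5 days deviated together (r of 0.16 to 0.33 in 3 pairs), so a fit paired by number is given beside the main fit, which is unpaired. The pairing comes from the numbers in the deposited names alone, and 3 such values are weak ground for it. Alternatives were DESeq2 1.42.0, its size factors, no filter, no mitochondrial genes, all 10 libraries in 1 fit, no fold minimum, the replicate block and leaving out each library. Restricting libraries by mt-Rnr2 share (10%) was chosen after the data were seen. The code was tested on simulated counts. No promoter of Myc and no protein sequences were used here. Reads of overlapping or near-identical genes may be split by the counting.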

Additional observations from a re-analysis of the deposited data

How the results depend on the processing

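Of the calls on members, the number changed as follows. Without the filter on low counts it was 2 at 5 days by name (Mycn added, 1.74, adjusted p = 0.0393), 2 between the DMSO groups by label (Mycn added, 2.04, 0.0189) and 2 for TRULI withdrawal against DMSO at 5 days (Max added, 1.03, 0.0449). With all 10 libraries in 1 fit it was 0 after recovery by label, 0 between the DMSO groups by label and 0 for TRULI withdrawal against DMSO at 5 days. Without a fold minimum it was 2 in the last comparison. With the replicate block it was 1 between TRULI withdrawn and present by name and 0 between the DMSO groups by name (Max lost in each), and it changed no other call on a member. Restricted to an mt-Rnr2 share above 10%, chosen after the data were seen, the count at 5 days by label was 1, but this sets a single TRULI library against DMSO, assumes that it varies like DMSO and supports no call. By label at 5 days same-numbered libraries did not deviate together (r of -0.16 to 0.05), and the block called 0 members. Leaving out each library in turn gave 0 to 1 called members at 5 days by label and by name, 0 to 2 after recovery by label, 0 to 2 between TRULI withdrawn and present by name, 0 to 1 (labels) and 0 to 2 (names) between the DMSO groups, and 0 to 2 for TRULI withdrawal against DMSO at 5 days. Where a library left out leaves 1 in a group, that library is assumed to vary like the other group.

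Values near 0 changed sign: Myc after recovery by label was -0.0302 with the replicate block and ran from -0.46 (without TRULI replicate 1) to 0.35 (without TRULI replicate 2) when each library was left out, with -0.0145 without DMSO replicate 1. Myc between TRULI withdrawn and present by name was -0.00636 in the fit of all 10 libraries and -0.0232 with the block, and ran from -0.42 (without TRULI replicate 1 after withdrawal) to 0.33 (without replicate 2), with -0.0099 without TRULI replicate 2 at 5 days. Max at 5 days by label was not near 0. It went from 0.86 ± 0.39 in the main fit to -0.0121 above 10% mt-Rnr2, where a single TRULI library is left. The cause was not tested. Under these alternatives, other than leaving out a library, Myc stayed higher after TRULI withdrawal than in DMSO at 5 days, by 3.12 to 3.59 on the log2 scale (adjusted p 1.05e-05 to 0.0648), and at 5 days by name, by 3.13 to 3.20 (1.32e-09 to 0.0173). Genes called at 5 days by label rose from 1 higher to 1139 higher and 883 lower without TRULI replicate 3. After recovery by label DESeq2 called 807 higher and 584 lower genes against 113 and 122. Mycn rests on few counts, 4 in all after TRULI withdrawal.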
